A study of Mus musculus with 8 samples.

Results

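The BCL2 family decides at the mitochondrion whether a stressed cell lives or dies. Its transcripts were followed here through 10 genes, chosen by symbol: the anti-apoptotic genes Bcl2, Bcl2l1, Bcl2l2, and Mcl1, the effector genes Bak1 and Bok, and the BH3-only genes Bid, Bad, Bcl2l11, and Bmf. Direct p53 targets of the family (Bax, Bbc3, Pmaip1) were not among them and are given only for comparison. All 10 were present among the 18533 gene symbols measured, and all 10 passed the filter on low counts that left 13535 genes for testing. MASMCs, smooth muscle cells in primary culture, came from explants of mouse aorta after removal of adventitia and endothelium, with 4 samples from WT mice and 4 from Hint1-/- mice. The mice were males of 4 to 6 weeks, Hint1-/- mice carried a knockout in every cell, and both genotypes received PDGF-BB, a smooth muscle mitogen, at 20 ng/mL for 24 hours. No sample without PDGF-BB was analysed here, so each difference is one between genotypes under the mitogen. Whether the replicates came from separate mice or cultures was not stated, so p-values measure the spread between these samples, which may be technical.

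In healthy cells, BCL2, BCL-XL (the product of Bcl2l1), BCL-W (the product of Bcl2l2), and MCL1 hold the effectors BAK and BAX inactive at the outer mitochondrial membrane. BH3-only proteins are the sensors of the family: they bind the anti-apoptotic proteins in their groove, and BIM (the product of Bcl2l11) and cleaved BID can also activate the effectors directly. Once active, the effectors open the membrane, cytochrome c leaves, and caspases are switched on. Growth factor signalling restrains several sensors, and BIM and BAD are both phosphorylated in cells supplied with such factors. Much of this control acts on the proteins, which RNA-Seq does not measure.

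In Hint1-/- MASMCs, 3 of the 10 transcripts were lower and none was higher. Bcl2l11 fell by 24.5%, Bid fell by 13.8%, and Bak1 fell by 7.99%, all members of the death-promoting side of the family. The 4 anti-apoptotic transcripts, Bok, Bad, and Bmf did not pass the test. Over all 13535 genes, 21.5% passed the same test (edgeR's quasi-likelihood test with Benjamini-Hochberg adjustment, adjusted p under 0.05), and 10.2% were lower in Hint1-/- MASMCs. The 3 of 10 members called were thus a small count beside a wide background of modest differences. None of the members differed by more than 1.5-fold, which 2.83% of all genes did together with an adjusted p under 0.05. In the same 3 members, no Hint1-/- sample reached the lowest WT sample, where 23.0% of all genes had groups that did not overlap. The median log2 fold change of the 10 members was −0.053, against 0.00031 over all genes tested.

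Totals of 20778077 to 20888041 estimated counts per sample lay behind these values, and TMM factors, which scale libraries to one another, were between 0.993 and 1.01. The knockout was visible in the targeted gene, with 2272, 2336, 2364, and 2301 Hint1 counts in WT samples and 713, 748, 778, and 715 in Hint1-/- samples (log2 fold change −1.64, edgeR adjusted p = 6.8e-16). Where in Hint1 the remaining reads lay cannot be read from per-gene counts. Acta2 and Myh11, which encode contractile proteins of smooth muscle, had 15956 to 17855 and 406 to 456 counts in WT, with 11640 to 12331 and 136 to 152 in Hint1-/- MASMCs. Endothelial markers summed to between 6.53 and 9.18 CPM (counts relative to library size after TMM) in every library. Macrophage markers were present in every library, with 1928 to 2226 CPM in WT and 1561 to 1659 CPM in Hint1-/- samples.

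The start regions of the 3 members that were lower are shown first, as a description of their sequence. RefSeq windows on GRCm38.p6 (mm10) held 250 bases before and 50 bases from each annotated start, and 16 such windows matched the 10 members. Each sequence reads 5′ to 3′ on the gene's own strand, and capitals mark matches to an AP-2 motif (GCCNNNGGC) or a FOXO motif (GTAAACA), both searched on both strands. AP-2 was searched because the study examined TFAP2A, a factor of that family, and FOXO because FOXO factors are textbook activators of the BIM gene. Bcl2l11 has 2 windows here, both on the plus strand, at chr2:128125788-128126087 and chr2:128127325-128127624. The Bid window is at chr6:120916775-120917074 and the Bak1 window at chr17:27028578-27028877, both on the minus strand.
Bcl2l11 upstream window: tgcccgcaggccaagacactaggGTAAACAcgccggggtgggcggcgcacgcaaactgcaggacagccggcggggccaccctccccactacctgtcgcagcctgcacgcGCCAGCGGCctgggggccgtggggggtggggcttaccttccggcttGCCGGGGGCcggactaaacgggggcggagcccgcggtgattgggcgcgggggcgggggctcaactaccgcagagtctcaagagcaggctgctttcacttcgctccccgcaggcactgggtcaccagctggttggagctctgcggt
Bcl2l11 downstream window: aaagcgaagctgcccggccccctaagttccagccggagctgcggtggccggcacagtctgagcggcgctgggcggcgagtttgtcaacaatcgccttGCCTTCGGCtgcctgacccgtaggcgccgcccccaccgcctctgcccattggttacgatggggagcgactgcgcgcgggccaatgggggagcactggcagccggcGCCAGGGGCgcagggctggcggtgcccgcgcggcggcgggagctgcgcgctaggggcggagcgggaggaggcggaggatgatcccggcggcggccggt
Bid: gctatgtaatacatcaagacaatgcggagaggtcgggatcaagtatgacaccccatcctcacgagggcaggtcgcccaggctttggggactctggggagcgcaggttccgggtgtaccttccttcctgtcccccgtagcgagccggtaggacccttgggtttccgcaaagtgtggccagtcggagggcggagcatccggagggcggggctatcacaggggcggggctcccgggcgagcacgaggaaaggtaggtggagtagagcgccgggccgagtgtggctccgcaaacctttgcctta
Bak1: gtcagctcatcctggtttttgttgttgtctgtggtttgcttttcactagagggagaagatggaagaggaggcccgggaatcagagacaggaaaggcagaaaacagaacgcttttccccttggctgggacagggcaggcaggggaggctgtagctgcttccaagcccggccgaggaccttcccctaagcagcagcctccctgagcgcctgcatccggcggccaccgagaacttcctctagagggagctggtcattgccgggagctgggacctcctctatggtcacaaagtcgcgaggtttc

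The upstream Bcl2l11 window held 2 AP-2 matches, which began 141 and 95 bases before the start, and 1 FOXO match, which began 227 bases before it. The downstream window held 2 AP-2 matches, which began 153 and 48 bases before its start, and no FOXO match. The Bid and Bak1 windows held neither motif. AP-2 matches were also found in 1 window each of Bad and Bcl2, whose transcripts did not pass the test. Of the 32851 windows in the RefSeq table, 16.6% held the AP-2 motif and 3.65% the FOXO motif, against 4 and 1 of the 16 member windows. G and C made up 71% and 74% of the Bcl2l11 windows, 63.3% of that of Bid, and 58.3% of that of Bak1, against a median of 52.7% over all windows. Windows of members that were not called ran from 49.3% in a Bcl2l1 window to 76% in that of Bcl2. Those of Mcl1 and Bok held 65.7% and 56.3%. No member window held the STAT motif TTCNNNGAA (8.3% of all windows) or the AP-1 motif TGANTCA (7.81%). A GC box (GGGCGG) was found in 9 windows of 8 members (35.7% of all windows) and the NF-Y box CCAAT in 5 windows of 3 members (37.4%). The shares over all windows were not matched to the member windows for G and C content. Matches are descriptions of sequence, and binding was not measured here.

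Bcl2l11, which encodes BIM, had the largest difference of the 3 called members. Its estimated counts, rounded to whole numbers, were 417, 431, 374, and 393 in WT replicates 1, 2, 3, and 4 and 281, 319, 296, and 314 in Hint1-/- replicates 1, 2, 3, and 4. The lowest WT sample stood above the highest Hint1-/- sample. WT samples averaged 19.3 ± 1.19 CPM and Hint1-/- samples 14.6 ± 0.851 CPM (SD, n = 4 each). On the log2 scale Bcl2l11 differed by −0.41 with an SE of 0.064 (edgeR adjusted p = 0.000128), and the change in percent had a 95% interval from −31.2% to −17.1%. A two-sided exact permutation test gave p = 0.0286, which no split of 8 samples into equal groups (70 ways) can go below. By p-value, Bcl2l11 stood at rank 577 of the 13535 genes. In each of 16 further fits, with other normalizations, filters, and tools and with each library left out in turn, it stayed lower, with adjusted p between 1.04e-05 and 0.000828. The gene lies on chromosome 2 of mm10 from 128126038 to 128162547 on the plus strand, with 8 annotated transcripts, and per-gene counts cannot say which of its splice forms changed.

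Bid encodes the sensor that links death receptors to mitochondria once a caspase has cut it. Its counts were 1126, 1144, 1204, and 1209 in WT replicates 1, 2, 3, and 4 and 971, 952, 1023, and 1059 in Hint1-/- replicates 1, 2, 3, and 4. All Hint1-/- samples were below all WT samples, at 48.3 ± 2.27 CPM against 56.0 ± 2.03 CPM (SD, n = 4 each). Bid differed by −0.21 on the log2 scale, with an SE of 0.042 (edgeR adjusted p = 0.000957), with a 95% interval from −18.9% to −8.43% in percent. The exact permutation test again gave its smallest p, 0.0286, and adjusted p lay between 0.000321 and 0.00607 over the 16 further fits. Bid lies on chromosome 6 from 120891930 to 120916853 on the minus strand and shares 628 exonic bases with Bcl2l13, which runs on the opposite strand. Whether reads were counted by strand was not stated, so reads from the shared bases cannot be assigned with certainty. Bcl2l13 had 917 to 965 counts in WT and 928 to 1042 in Hint1-/- samples (log2 fold change 0.04, adjusted p = 0.576 from edgeR's test).

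The remaining BH3-only genes, Bad and Bmf, did not pass the test. Bad, whose product binds BCL2 and BCL-XL and is held by 14-3-3 proteins when phosphorylated, had 682, 622, 663, and 686 counts in WT replicates 1, 2, 3, and 4 and 683, 638, 651, and 656 in Hint1-/- replicates 1, 2, 3, and 4. Both groups covered nearly the same range, and the log2 fold change was −0.0026 with a 95% interval from −0.10 to 0.10 (adjusted p = 0.980 from edgeR's test). Bmf, whose product is tied to the cytoskeleton until cells lose attachment, was the scarcest member, with 27, 28, 25, and 39 counts in WT and 21, 19, 29, and 23 in Hint1-/- replicates in the same order. The groups overlapped, and the WT range rested on replicate 4. At −0.36 on the log2 scale, with an SE of 0.21 (edgeR adjusted p = 0.258), the difference was close in size to that of Bcl2l11, but the 95% interval ran from −42.8% to 6.33%. That interval holds both no change and a fall larger than that of Bcl2l11. Without WT replicate 4 the log2 fold change of Bmf was −0.20, and without Hint1-/- replicate 3 it was −0.49. Bad lies on chromosome 19 from 6941861 to 6951899 on the plus strand and shares 524 exonic bases with Gpr137 on the other strand, and Bmf lies on chromosome 2 from 118528757 to 118549687 on the minus strand.

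**Figure D1:**
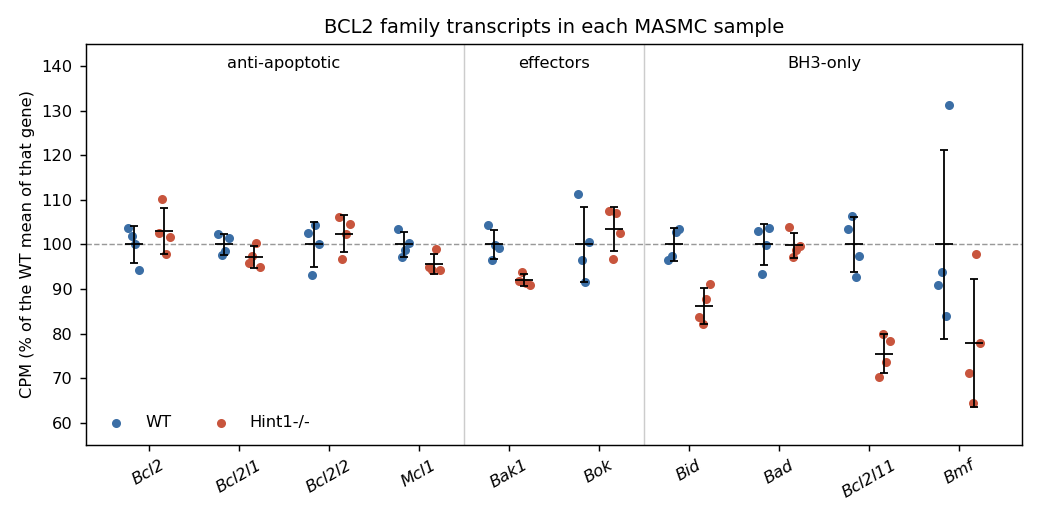
CPM of each member in each of the 8 samples, as a percentage of that gene's WT mean, with horizontal bars at the group mean and whiskers of 1 SD (n = 4 per genotype). The Hint1-/- points of Bcl2l11, Bid, and Bak1 lie below all WT points of the same gene, and the points of the other 7 members overlap.

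The effector Bak1 was the third member to be lower. Its product sits in the outer mitochondrial membrane and forms the pore. Counts were 4737, 4405, 4546, and 4505 in WT replicates 1, 2, 3, and 4 and 4141, 4225, 4136, and 4110 in Hint1-/- replicates 1, 2, 3, and 4. The groups did not overlap, but the gap between the lowest WT sample and the highest Hint1-/- sample was narrow. Levels were 218 ± 7.17 CPM in WT and 200.2 ± 2.77 CPM in Hint1-/- MASMCs (SD, n = 4 each). This was a difference of −0.12 on the log2 scale with an SE of 0.033 (edgeR adjusted p = 0.0122, exact permutation p = 0.0286), with a 95% interval from −12.2% to −3.52% in percent. Among the 16 further fits, WT replicate 1 weighed most: without it the log2 fold change of Bak1 was −0.10 and the adjusted p was 0.0499, just under the limit. Bak1 lies on chromosome 17 from 27019810 to 27029009 on the minus strand. It shares 437 and 177 exonic bases with Ggnbp1 on the opposite strand, which had at most 24 counts in any sample.

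Bok, an effector that is kept low by protein turnover and can act without the other effectors, did not follow Bak1. Its counts were 435, 380, 359, and 393 in WT and 418, 375, 417, and 399 in Hint1-/- replicates 1, 2, 3, and 4. The groups overlapped, at 18.7 ± 1.57 CPM and 19.4 ± 0.942 CPM (SD, n = 4 each). Bok differed by 0.05 on the log2 scale, with a 95% interval from −0.09 to 0.18 (edgeR adjusted p = 0.650). Bok lies on chromosome 1 from 93685660 to 93695764 on the plus strand. Whether the difference of Bak1 itself differs from that of Bok was not tested.

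None of the 4 anti-apoptotic transcripts passed the test, and their median log2 fold change was −0.0032. Mcl1, whose short-lived product is lost quickly when transcription stops, came closest. It had 4703, 4440, 4502, and 4564 counts in WT replicates 1, 2, 3, and 4 and 4289, 4244, 4487, and 4258 in Hint1-/- replicates 1, 2, 3, and 4. In Mcl1, 3 of the Hint1-/- samples lay below all WT samples and replicate 3 lay among them. Its log2 fold change was −0.06 with an SE of 0.033 and a 95% interval from −0.13 to 0.0039 (edgeR adjusted p = 0.178). Over the 16 further fits, the adjusted p of Mcl1 lay between 0.078 and 0.39. Mcl1 lies on chromosome 3 from 95658788 to 95663176 on the plus strand.

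Bcl2l1, the BCL-XL gene, showed a similar picture, with 3566, 3423, 3438, and 3531 counts in WT and 3316, 3368, 3486, and 3291 in Hint1-/- replicates 1, 2, 3, and 4. Again 3 Hint1-/- samples lay low and replicate 3 lay within the WT range. The log2 fold change was −0.04 with a 95% interval from −0.11 to 0.03 (adjusted p = 0.412 from edgeR's test). Its splice forms BCL-XL and BCL-XS have opposite roles, and per-gene counts merge them. Bcl2l1 lies on chromosome 2 from 152780668 to 152831728 on the minus strand.

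Bcl2 and Bcl2l2 leaned the other way by less than the spread between replicates. Bcl2, the founding member, had 289, 286, 280, and 263 counts in WT and 284, 305, 272, and 282 in Hint1-/- replicates 1, 2, 3, and 4 (log2 fold change 0.04, 95% interval −0.09 to 0.18, adjusted p = 0.689 from edgeR's test). Bcl2l2, the BCL-W gene, had 1484, 1356, 1516, and 1450 counts in WT and 1527, 1389, 1479, and 1508 in Hint1-/- replicates in the same order (log2 fold change 0.03, 95% interval −0.05 to 0.12, adjusted p = 0.610 from edgeR's test). In both genes the groups overlapped over most of their range. These intervals, and those of Mcl1 and Bcl2l1, exclude changes of the size seen for Bcl2l11. Bcl2 lies on chromosome 1 from 106538178 to 106714274 on the minus strand. It shares 558 exonic bases with D630008O14Rik on the opposite strand, which was not among the gene symbols measured. Bcl2l2 lies on chromosome 14 from 54883377 to 54888234 on the plus strand. It shares 594 exonic bases with Gm20521 on the same strand, which was also not among the gene symbols measured. How reads from the shared bases were assigned was not stated.

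**Figure D2:**
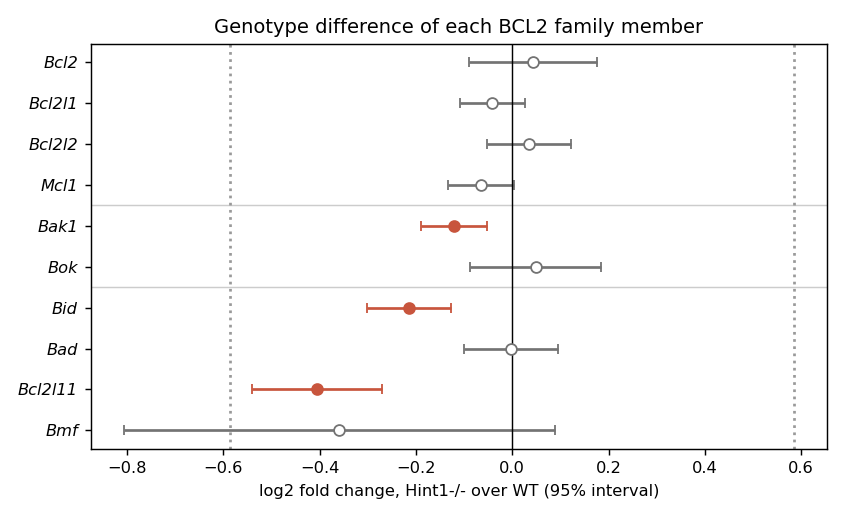
Log2 fold change of each member, Hint1-/- over WT, from edgeR's quasi-likelihood fit, with 95% intervals (n = 4 per genotype), filled where the adjusted p over all 13535 genes was under 0.05. Bak1, Bid, and Bcl2l11 lie below 0 with intervals that do not reach it, and no member's value passes the dotted lines at a fold of 1.5.

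Levels of different genes were compared per length, in TPM (counts divided by exonic length and scaled to the same sum in each sample). Bak1 was the most abundant member in WT MASMCs at 311 ± 7.73 TPM, followed by Mcl1 at 219 ± 4.38 TPM and Bcl2l1 at 125 ± 2.08 TPM (SD, n = 4). Bid at 54.3 ± 1.80 TPM and Bcl2l2 at 53.6 ± 2.09 TPM came next, and these neighbours overlapped. Bad at 42.7 ± 1.56 TPM and Bok at 35.1 ± 2.81 TPM formed the middle of the order. Bcl2l11 at 8.28 ± 0.575 TPM, Bcl2 at 5.02 ± 0.229 TPM, and Bmf at 0.933 ± 0.196 TPM were at the bottom, so the founding member of the family was among its scarcest transcripts here. No other neighbours in the WT order overlapped. In Hint1-/- MASMCs the order with these lengths was the same except that Bid, at 46.8 ± 2.75 TPM, stood below Bcl2l2, at 54.9 ± 2.50 TPM, with no overlap between them.

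The place of a gene depends in part on the length it is given. With the length of the longest transcript in place of all exons, Bcl2l1 at 170.3 TPM and Mcl1 at 167 TPM changed places in WT MASMCs, and Bad at 54.2 TPM stood above Bcl2l2 at 47.7 TPM. In Hint1-/- MASMCs the exchange of Bid and Bcl2l2 was not seen with these lengths: Bid, at 52.5 TPM, stood above Bcl2l2, at 49.0 TPM, and below Bad, at 54.2 TPM, whereas in WT MASMCs Bid, at 60.7 TPM, stood above Bad. In WT MASMCs, Bak1 stayed first, at 239 TPM, and Bcl2l11, Bcl2, and Bmf stayed last in that order.

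**Figure D3:**
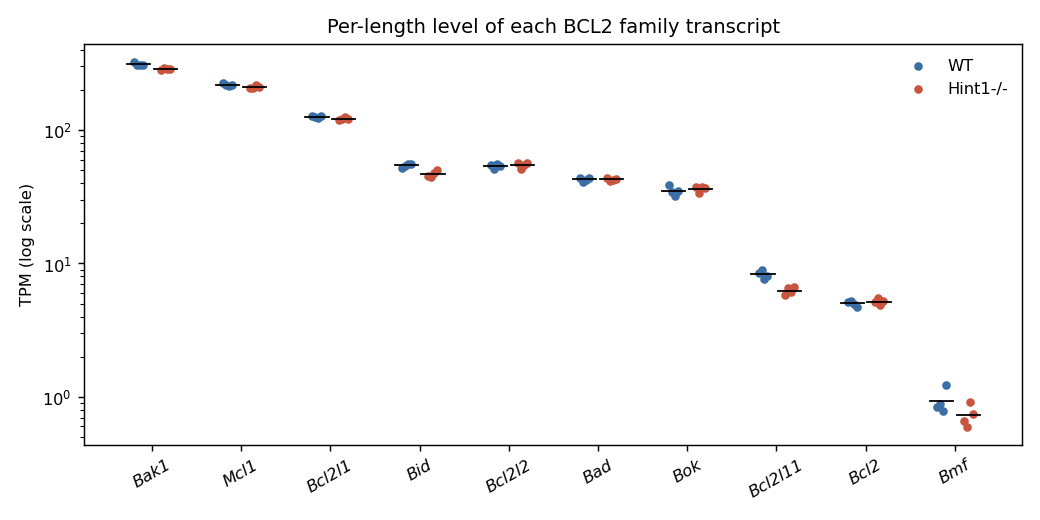
TPM of each member in each sample on a log axis, ordered by WT mean, with horizontal bars at the group means (n = 4 per genotype). Bak1, Mcl1, and Bcl2l1 stand above 100 TPM in both genotypes, and Bcl2l11, Bcl2, and Bmf stand below 10 TPM.

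Summed over the members, the family ranged from 842 to 879 TPM in WT and from 799.8 to 822 TPM in Hint1-/- MASMCs. Anti-apoptotic transcripts made up 47.1 ± 0.126% of that sum in WT and 48.3 ± 0.498% in Hint1-/- MASMCs (SD, n = 4 each), with ranges of 46.9% to 47.2% and 47.9% to 49.0%. The effectors held 40.5 ± 0.458% and 39.8 ± 0.541%, and the BH3-only genes held 12.4 ± 0.347% and 11.9 ± 0.310%. The WT and Hint1-/- ranges did not overlap for the anti-apoptotic share and did for the effector and BH3-only shares. A share can rise when the rest of the sum falls, and no anti-apoptotic transcript was called higher.

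Ratios of a death gene to a survival gene were also taken within each sample. Bcl2l11 stood at 3.77%, 4.13%, 3.54%, and 3.66% of the Mcl1 level per length in WT replicates 1, 2, 3, and 4 and at 2.79%, 3.20%, 2.81%, and 3.14% in Hint1-/- replicates 1, 2, 3, and 4. The groups did not overlap for this ratio. Against Bcl2l1, Bcl2l11 stood at 6.61 ± 0.432% in WT and 5.14 ± 0.336% in Hint1-/- MASMCs, and Bid at 43.4 ± 1.91% and 38.5 ± 2.17% (SD, n = 4 each). Bid overlapped, with Hint1-/- replicate 4 at 41.6% above WT replicate 1 at 40.8%. Bak1 relative to Mcl1 was 142 ± 1.59% and 137 ± 4.31%, and there too the groups overlapped. Relative to Bcl2l1, Bak1 was 248 ± 4.94% in WT and 235 ± 6.13% in Hint1-/- MASMCs. For that ratio the groups did not overlap, with WT replicate 4 lowest at 243% and Hint1-/- replicate 2 highest at 239%. These ratios restate the differences above and were given no test.

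Markers of other cell types moved with genotype and thus with Bcl2l11, Bid, and Bak1. Of 9 tested macrophage markers, 6 were lower and 1 was higher in Hint1-/- samples, with a median log2 fold change of −0.32. Csf1r stood at −0.38, Cd68 at −0.44, Adgre1 at −0.37, and Ptprc at −0.31 on the log2 scale, beside −0.41 for Bcl2l11, −0.21 for Bid, and −0.12 for Bak1. The higher marker was C1qc, at 1.13 on the log2 scale, with 5 to 10 counts in WT and 11 to 17 in Hint1-/- samples. It passed the filter on low counts through the group where it was high. Mrc1 at 0.58 and C1qb at 0.56 leaned the same way without passing the test, with at most 37 and 33 counts. C1qa was too low to be tested. Of 9 tested smooth muscle markers, 6 were lower and 1 (Smtn) was higher, with a median of −0.31, while Myocd, a defining factor of the lineage, was too low to be tested. Summed smooth muscle markers ranged from 2629 to 2803 CPM in WT and from 2436 to 2528 CPM in Hint1-/- samples. Of 8 Schwann and glial markers, 7 were lower (50.4 to 56.8 CPM summed in WT, 12.9 to 15.3 CPM in Hint1-/- samples), and of 7 fibroblast markers, 4 were higher and 2 lower (6180 to 6707 CPM and 6848 to 7454 CPM). None of 6 tested endothelial markers differed in edgeR's test. Cardiac muscle markers summed to between 1.10 and 1.96 CPM in WT and to between 4.62 and 8.46 CPM in Hint1-/- samples, with Myl7, Myl3, and Mb at 0 counts in WT samples. Of the 3 that were tested, all called higher, Myh6 and Myl7 passed the filter only through the Hint1-/- samples, so their calls are no support. The part of these cell types in the lower Bcl2l11, Bid, and Bak1 levels was not tested, and in bulk RNA fewer cells of a type and less RNA per cell cannot be told apart.

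Across the 8 samples, the genes whose log2 CPM followed Bcl2l11 most closely, among the 11848 genes whose counts averaged 50 or more, were Epsti1 (Pearson r = 0.979), Il1rn (r = 0.976), and Stx3 (r = 0.975). All 3 were lower in Hint1-/- MASMCs, with log2 fold changes of −0.48, −0.28, and −0.18. The samples fell into the 2 genotypes, so any gene with a clean difference of that sign scores high, and the likeness is a description over libraries that share the same genotypes.

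The other BCL2 family genes framed these values. The 3 direct p53 targets were lower as well, where 10.2% of all genes tested were called lower. Pmaip1, the gene of the BH3-only protein NOXA, was at −0.29 on the log2 scale (adjusted p = 0.00428). Bax, the other classical effector, was at −0.14 (adjusted p = 0.0113, both from edgeR's test). Bbc3, the gene of PUMA, had a log2 fold change of −0.22 (adjusted p = 0.0152 from edgeR's test), and 2 of the 3 passed without Hint1-/- replicate 1 or without replicate 4. Of 7 further tested relatives, Bnip3 rose and so did its paralog Bnip3l. Bnip3, whose product sits on mitochondria and serves in mitophagy and the response to low oxygen, had 1509 to 1776 counts in the WT group, and Hint1-/- samples ranged from 2900 to 3507. Its difference of 1.01 on the log2 scale, with an SE of 0.055 (edgeR adjusted p = 1.6e-10), was the only one past a fold of 1.5 among the 72 tested genes of the pathway. Bnip3l had a log2 fold change of 0.41 (adjusted p = 3.3e-07 from edgeR's test). Bcl2a1b, Bcl2a1d, Bcl2l12, Bcl2l13, and Bcl2l15 did not pass, and Bcl2a1a, Bcl2l10, Bcl2l14, Bik, and Hrk were too low to be tested. The Bcl2a1 genes are near-identical copies, so reads may be divided between them.

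Downstream of the family, 20% of the apoptosome and caspase genes were called. Of the mitochondrial death factors and channels, 25% were called, against 21.5% of all genes. Of 10 genes of the apoptosome and caspases, 2 passed the test, among them Casp6, an effector caspase gene, which was higher (log2 fold change 0.19, adjusted p = 0.0248 from edgeR's test). Casp9, the initiator caspase of the apoptosome, at 0.06 and Apaf1, its scaffold, at 0.12 on the log2 scale did not pass. The number called in this group was 0 without WT replicate 1, WT replicate 3, or Hint1-/- replicate 4 and under DESeq2, and 1 without Hint1-/- replicate 2. Of 8 mitochondrial death factors and channels, Endog, a nuclease, was higher, from 88 to 108 counts in WT to between 113 and 138 in Hint1-/- samples (log2 fold change 0.39, adjusted p = 0.00981 from edgeR's test). Cycs, the cytochrome c gene, was lower, at −0.14 on the log2 scale (adjusted p = 0.0168 from edgeR's test). Without Hint1-/- replicate 4, 1 gene of this group passed, and 4 passed with library sizes set without the 20 most abundant genes.

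Of 7 tested inhibitor of apoptosis genes, 3 (42.9%) were higher and none was lower, against 1522 higher and 1385 lower of the 13535 genes tested. Birc2 and Birc3, ubiquitin ligases in death receptor signalling, had log2 fold changes of 0.24 (adjusted p = 0.000821) and 0.11 (adjusted p = 0.0295), and Birc6 had 0.16 (adjusted p = 0.0306, all from edgeR's test). Xiap, the direct caspase inhibitor, did not pass, at −0.09. The count fell to 1 without WT replicate 3, without Hint1-/- replicate 2, and with library sizes set without the 20 most abundant genes. Among 7 death receptors and adaptors, 1 (14.3%) was called. Tnfrsf10b, the mouse TRAIL receptor gene, was higher at 0.18 on the log2 scale (adjusted p = 0.00306 from edgeR's test). Fas at 0.04 and Cflar at 0.04 did not pass. Without WT replicate 2, 2 genes of this group passed.

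Among genes that act on the members themselves, the counts are again to be read against the 21.5% of all genes that passed. Of 14 partners and turnover factors, which include 14-3-3 proteins that hold BAD, dynein light chains that hold BIM and BMF, and ligases that degrade MCL1, only Rnf183, a ligase that acts on BCL-XL, was called. It was lower, with 83 to 123 counts in WT and 72 to 79 in Hint1-/- samples (log2 fold change −0.41, adjusted p = 0.0228 from edgeR's test). That count depended on the fit. No gene of this group passed without Hint1-/- replicate 1, and 2 passed without WT replicate 2 or without Hint1-/- replicate 3. The number was also 2 with DESeq2's size factors, upper-quartile normalization, at least 10 counts in every sample, or the replicate number as a block. With DESeq2 or limma-voom it was 2 as well, and it was 3 with library sizes set without the 20 most abundant genes. Of 16 upstream transcription factors and kinases, 2 were higher and 2 lower. Foxo3, the FOXO factor best known for driving the BIM gene, rose from between 1582 and 1649 counts in WT to between 1802 and 1941 in Hint1-/- samples (log2 fold change 0.21, adjusted p = 0.000269 from edgeR's test), opposite in sign to Bcl2l11. Rps6ka1, a kinase of the ERK pathway that phosphorylates BAD, fell from between 742 and 854 to between 598 and 674 counts (log2 fold change −0.30, adjusted p = 0.000498 from edgeR's test). Pim1, also a BAD kinase, was at 0.14 (adjusted p = 0.0365) and Akt1 at −0.14 (adjusted p = 0.0113 from edgeR's test). Whether Foxo3 protein was nuclear or phosphorylated was not measured.

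**Figure D4:**
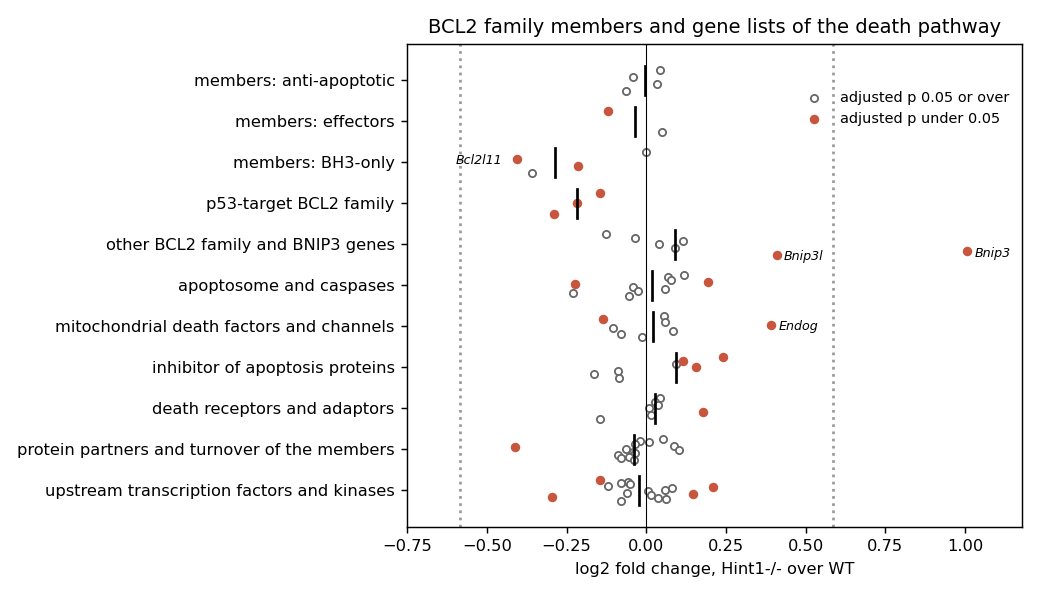
Log2 fold change, Hint1-/- over WT, of every tested gene in the member groups and the lists of the death pathway, with vertical bars at each list's median and dotted lines at a fold of 1.5. Filled points passed edgeR's test, with an adjusted p below 0.05. Bnip3 at 1.01 lies past the right line. The filled member and p53-target points all lie below 0, and the filled points of the other BCL2 family genes lie above it.

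Over the 8 lists, 18 of 72 tested pathway genes were called, or 25.0%, with 10 higher and 8 lower and a median log2 fold change of −0.0048. This share was close to the 21.5% of all genes. Among the 10 members and the 3 p53 targets, 6 genes were called and all 6 were lower. Of the 7 further tested relatives, 2 were called, Bnip3 and Bnip3l, and both were higher. Of all 13535 genes tested, 1522 were called higher and 1385, or 10.2%, lower. The member and p53-target groups were defined with earlier results of these data known, so the shared direction is a description of the genes listed.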

How the data were processed

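RNA-Seq was analysed for WT (n = 4) and Hint1-/- (n = 4) MASMCs, grouped by the genotype in the sample labels. The authors sequenced poly(A) RNA as 50-base reads and mapped them to mm10. The paper names HISAT2 for alignment, and the submitters' processing notes list Bowtie2, RSEM 1.3.1, and DESeq2 1.4.5 without roles. The authors deposited estimated counts per gene symbol, with decimals and no normalization, which were rounded to whole numbers here. Decimals arise when a read is divided between transcripts or genes, and 4 members had whole values in all 8 files.

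Genes passing filterByExpr were normalized by TMM and tested with edgeR 4.0.16 (glmQLFit and glmQLFTest, two-sided, genotype only, R 4.3.3, Python 3.11.15) with Benjamini-Hochberg adjustment over 13535 genes. A gene was called at an adjusted p under 0.05. SE is the log2 fold change over the square root of F. TPM used exonic lengths from GENCODE on GRCm38, by symbol, and 798 symbols without a length were left out. Exact permutation tests used log2 CPM with a prior count of 2. Alternatives were DESeq2 1.42.0, limma-voom (limma 3.58.1), 3 other normalizations, 2 other filters, a replicate block, and each library left out. The fit was tested on simulated data.

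Members and lists were chosen with earlier results of these data known. Named were all members and, of each list, the genes also past a fold of 1.5 or else the 2 with the smallest adjusted p among those called. Bbc3, Bnip3l, Birc6, Pim1, Akt1, and genes named as not passing were chosen after their values were seen. The result for 1 gene that this rule names is not reported here.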

Additional observations from a re-analysis of the deposited data

How the results depend on the processing

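Over 16 further fits, the number of members called was 3 in every fit, including DESeq2, limma-voom, and each library left out, and Bcl2l11, Bid, and Bak1 stayed lower in all of them. The count over all genes lay between 2258 and 2909 with each library left out, against 2907, and that of pathway genes between 12 and 20, against 18. Where a fold over 1.5 was also required, 383 genes, 0 members, and 1 pathway gene remained. With longest transcripts as lengths, the anti-apoptotic share of summed WT TPM was 49.5%, against 47.1%. The log2 fold change of Bad, which never passed the test, ran from −0.034 to 0.015 with each library left out. It was positive without WT replicate 1 (0.012), WT replicate 4 (0.015), Hint1-/- replicate 2 (0.010), and Hint1-/- replicate 3 (0.0032), and the cause was not tested. Same-numbered samples showed little shared deviation (correlations −0.045, 0.081, 0.0088, and 0.023, and 2 of 4 highest with their own number). With 4 samples per genotype, such a check cannot decide whether the numbers pair samples. With the replicate number as a block, 3082 genes, 3 members, and 19 pathway genes were called. Counts of Bmf did not exceed 39, and its 95% interval was the widest of the members.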
